A study of Mus musculus with 4 samples.

Results

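Genes that sperm precursors use after meiosis were examined in H3K36me3 ChIP-seq peak lists of mouse germ cells taken while meiosis was under way. The 9 genes were Prm1, Prm2, Tnp1, Tnp2, Acrv1, Odf1, Smcp, Crem and Gapdhs, out of 22367 protein-coding genes of the GENCODE annotation of mm9. They were chosen by name, with earlier results of these data already known. Each was followed in a window made of the gene with 5 kb on either side. The windows of Prm1, Prm2 and Tnp2 overlap, because these genes lie side by side on chromosome 16, so the 9 windows make up 7 separate loci. Germ cells, labelled spermatocytes, came from testes at 14 dpp (days post-partum) of 2 strains. B6 is C57BL/6J, and the labels and methods name KI as B6.Cg-Prdm9<tm1.1Kpgn>/Kpgn. KI carries, on the B6 background, a Prdm9 whose zinc finger exon comes from CAST/EiJ mice, so that its PRDM9 protein binds other DNA sites. Each ChIP was compared by the authors with an input library of the same strain, labelled 15 dpp and not used here. The antibody field of the labels reads H3K36me6, whereas the titles and the methods of the study name H3K36me3.

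Each strain had 1 list of broad regions and 1 list of refined peaks (the narrow summits of enrichment that lie within the broad regions), called on the merged reads of its biological replicates. No value below therefore has a replicate error, no test between the strains was possible, and differences between strains are described only. The B6 list held 58502 refined peaks and the KI list 72692, and broad regions were at least 2000 bp wide and started on a grid of 500 bp. The lists give positions without read counts or scores, so the depth behind a region is unknown, and a window without a region is a window without a call, not a measured absence of the mark. By the read counts in the paper, the merged KI replicates held more aligned reads than those of B6. The part of this in calls made in KI only was not tested. Because chromatin came from many cells together, a mark in few cells and a weak mark in many cells cannot be told apart. Windows of 10 of 10 meiotic prophase genes were at least 50% covered by broad regions in both strains, with medians of 93.7% in B6 and 91.5% in KI. Over all protein-coding genes, 40.5% in B6 and 38.6% in KI reached this. The 10 genes were listed with earlier results of these data known, so they are no independent check of the label. Most of the 10 are longer than the median protein-coding gene (15.4 kb).

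H3K36me3 is laid down mainly by SETD2, which travels with RNA polymerase II, and it therefore marks the bodies of transcribed genes and is usually low at their starts. In spermatocytes PRDM9 also places it on nucleosomes at recombination hotspots. After meiosis, round spermatids turn on a set of genes that rebuild the nucleus and build the acrosome and the tail: transition proteins replace most histones and are in turn replaced by protamines, and CREM is a transcription factor that switches on many of these genes. Testes of juvenile mice at this age hold germ cells up to the pachytene stage of meiosis and as yet few or no round spermatids.

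Broad H3K36me3 was found at some of these genes and not at others. Crem, Acrv1 and Gapdhs were covered over most of their windows in both strains, Tnp1 and Smcp had no region at all, and Prm1, Prm2, Tnp2 and Odf1 lay between, with regions beside the gene in both strains and on the gene in KI for Prm2 and Odf1. In B6, 3 of the 9 windows were at least 50% covered, beside 40.5% of all protein-coding genes, and in KI again 3, beside 38.6%. The spermatid genes are short, with a median length of 5.08 kb against 15.4 kb for all protein-coding genes, and among genes of up to 20 kb the background was 32.3% in B6 and 31.2% in KI. At a lower threshold of 10%, 5 windows in B6 and 7 in KI were covered, beside 58.1% and 58.7% of all genes, and at 90% it was 0 in each strain, beside 10.9% and 8.45%. Windows with no broad region numbered 2 of 9 in each strain, beside 33.2% and 30.9% of all genes. The median coverage of the 9 windows was 11.4% in B6 and 37.1% in KI, beside 26.4% and 23.6% over all genes, whose quartiles ran from 0% to 76.1% and from 0% to 72.7%. The windows of Prm1, Prm2 and Tnp2 enter this median as 3 values that overlap, and the KI median is the value of Tnp2. With these windows joined, a choice made after the data were seen, the medians over the 7 loci were 31.4% in B6 and 34.2% in KI, and 3 loci were at least 50% covered in each strain. The counts are thus near the background.

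**Figure D1:**
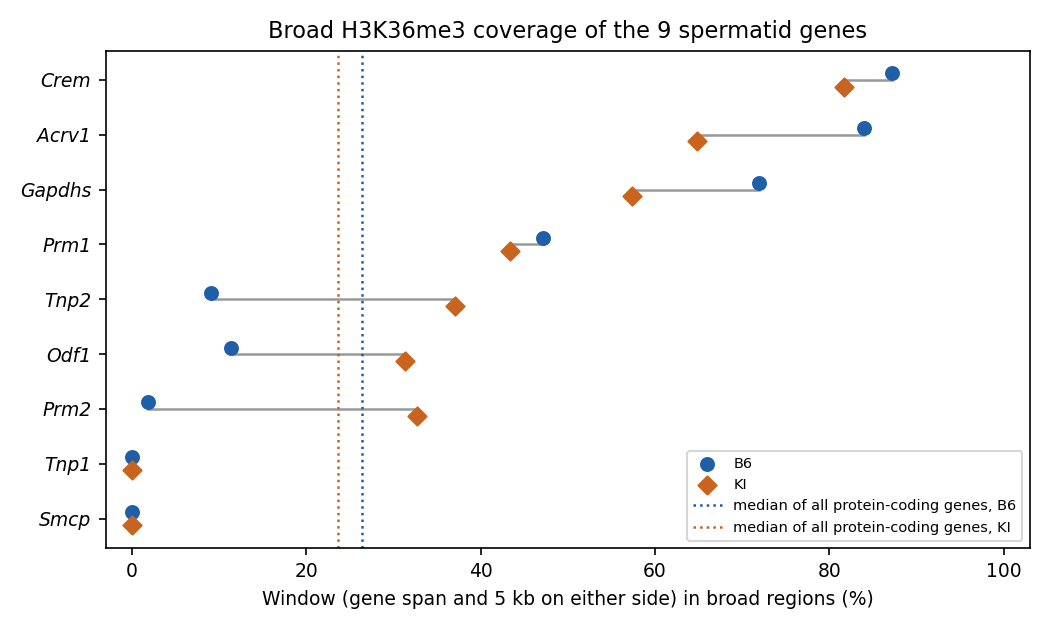
Share of each member's window (gene with 5 kb on either side, horizontal axis, in %) that lies in merged broad H3K36me3 regions, with a circle for B6 and a diamond for KI; dotted lines mark the medians of all 22367 protein-coding genes. Crem, Acrv1 and Gapdhs lie above 50% in both strains, Tnp1 and Smcp at 0, and Prm2, Tnp2 and Odf1 are further right in KI.

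The protamines and Tnp2 share a cluster. PRM1 and PRM2 are the small basic proteins that pack sperm DNA, and TNP2 is a transition protein. All 3 genes are read from the minus strand of chromosome 16, Prm1 at 10796419 to 10796979, Prm2 at 10791476 to 10792198 and Tnp2 at 10788029 to 10788748, each with 2 exons and under 1 kb long. Between Prm2 and Tnp2 lies Prm3, at 10790600 to 10791006. The refined peak of KI in Prm2 is shown in part because it was the only refined peak of either strain inside a protamine or transition protein gene. It ran from 10791580 to 10791961, 382 bp, and the stretch outside the untranslated regions, chr16:10791666-10791961 on the minus strand of mm9, is given 5′ to 3′ with coding exon bases in capitals.
Prm2 KI peak: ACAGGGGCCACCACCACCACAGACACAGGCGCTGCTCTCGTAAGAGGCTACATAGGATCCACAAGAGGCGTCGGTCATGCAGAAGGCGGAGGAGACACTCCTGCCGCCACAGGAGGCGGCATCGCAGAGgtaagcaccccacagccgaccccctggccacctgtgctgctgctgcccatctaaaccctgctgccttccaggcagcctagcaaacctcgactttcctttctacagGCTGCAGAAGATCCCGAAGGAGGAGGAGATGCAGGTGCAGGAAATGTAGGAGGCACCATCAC
The 296 bases hold 11 CpG and are 60.5% G or C, and the intron of Prm2 lies between the 2 blocks of capitals.

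Prm2 was the member with the widest gap between the strains. Broad regions covered 1.85% of its window in B6 and 32.6% in KI, a difference (B6 minus KI) of -30.8 percentage points. A difference of this size or more, in either direction, was reached by 1.40% of all protein-coding genes, which were not matched for length. The KI region, 3500 bp from 10790001 to 10793500, spanned Prm2 and Prm3 completely, so that the whole of both genes, including the start of Prm2, was covered in KI and 0% of either in B6. In B6 the nearest broad region was 4803 bp away and the nearest refined peak 5685 bp away. A start within a broad region is uncommon: 1 of the 9 members had it in B6 (Acrv1), beside 5.87% of all genes, and 2 in KI (Acrv1 and Prm2), beside 6.1%.

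Tnp2 itself was covered in neither strain. Its window had 9.07% in B6 and 37.1% in KI, a difference of -28.0 points that 1.97% of genes reached. Most of this is the same KI region over Prm2 and Prm3, which ends 1253 bp before the start of Tnp2, and it is no separate observation. On the other side of Tnp2, beside Socs1, both strains had a region that entered the window: 10781501 to 10784000 in B6 and 10781001 to 10783500 in KI, which shared 472 bp within it.

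Prm1 had broad regions in front of its start in both strains and none on the gene. In front of the start, 4979 bp of the 5 kb were covered in B6 and 2500 bp in KI. Over the whole window coverage was 47.1% in B6 and 43.4% in KI, a difference of 3.76 points, because 2082 bp of the KI region over Prm2 and Prm3 also fell behind Prm1. The 3000-bp region of B6 ended 22 bp before the start of Prm1 and was joined by a second, together 10797001 to 10802000. The KI region ran from 10798501 to 10801000 and ended 1522 bp before it. B6 had refined peaks of 586 bp and 575 bp there, KI of 392 bp and 114 bp. The 114-bp peak of KI, chr16:10799992-10800105 on the minus strand and about 3 kb in front of Prm1, lay wholly inside the 575-bp peak of B6 and is shown because it is the sequence of the cluster that both strains called, capitals marking the bases in both peaks.
Prm1 KI shared peak: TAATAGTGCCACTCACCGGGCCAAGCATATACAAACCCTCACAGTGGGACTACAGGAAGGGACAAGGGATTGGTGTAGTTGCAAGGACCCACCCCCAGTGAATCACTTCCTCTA
Over the joined windows of the 3 genes, 18.95 kb, coverage was 31.4% in B6 and 34.2% in KI with 2972 bp in common. The strains thus differed in where regions lay in the cluster more than in how much of it they covered.

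**Figure D2:**
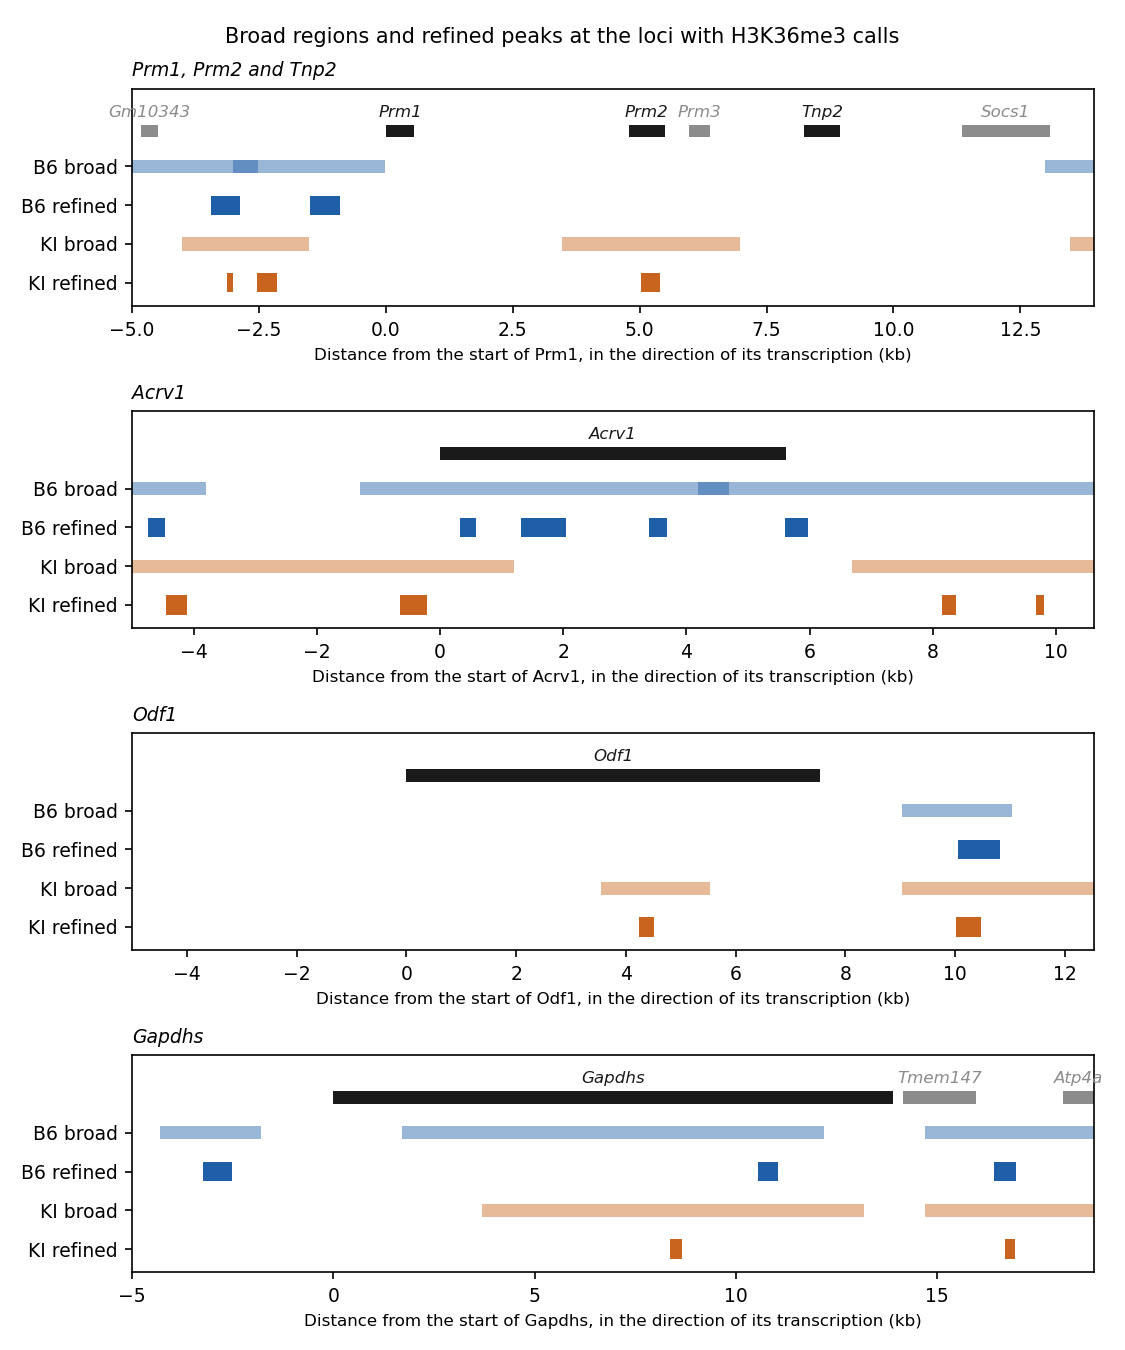
Broad regions (light bars, darker where 2 regions overlap) and refined peaks (dark bars) of B6 and KI at Prm1, Prm2 and Tnp2, at Acrv1, at Odf1 and at Gapdhs; horizontal axes give the distance in kb from the start of the named gene along its transcription. The KI region over Prm2 and Prm3, the KI region inside Odf1 and the B6 regions over Acrv1 beyond its position 1195 have no counterpart in the other strain, whereas regions in front of Prm1, behind Odf1 and behind Gapdhs occur in both.

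Tnp1, which encodes the other main transition protein, had 0% coverage in both strains. It lies on chromosome 1 at 73061657 to 73062473, and the nearest broad region was 85.5 kb away in B6 and 90.7 kb in KI. Within 100 kb on either side, 2.74% of the bases were covered in B6 and 1.25% in KI. Smcp was alike. It encodes a cysteine-rich protein of the capsule around sperm mitochondria and lies on chromosome 3 at 92387814 to 92392896; the nearest broad region was 123.1 kb away in B6 and 41.8 kb in KI. The surrounding 100 kb on either side held 0% in B6 and 1.22% in KI. Both genes thus lay in long stretches without calls, and the refined peak closest to either of them, that of KI near Smcp, was 42.5 kb away.

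Acrv1 encodes an acrosomal vesicle protein and lies on chromosome 9 at 36500805 to 36506422 on the plus strand. B6 regions took up 84.0% of its window and KI regions 64.8%, a difference of 19.2 points that 6.26% of genes reached. On the gene itself the gap was wider: 100% of the gene in B6 and 21.3% in KI, where the region over the start ended 1195 bp into the gene. The flanks had the opposite order, with 75% in B6 and 89.2% in KI. Every base of the window was in a broad region of at least 1 strain, and 48.8% of it in both. B6 had 4 refined peaks that touched the gene, of 263, 731, 285 and 377 bp, and KI had 0 on it, its nearest being a 438-bp peak from 645 to 208 bp in front of the start. No refined peak of 1 strain overlapped a refined peak of the other in this window. The 263-bp peak of B6, chr9:36501133-36501395 in the intron nearest the start, is shown with the 250 bases in front of the start, chr9:36500555-36500804, where capitals mark the end of the KI peak, as the calls of the strains that come closest to the start from either side.
Acrv1 B6 intron peak: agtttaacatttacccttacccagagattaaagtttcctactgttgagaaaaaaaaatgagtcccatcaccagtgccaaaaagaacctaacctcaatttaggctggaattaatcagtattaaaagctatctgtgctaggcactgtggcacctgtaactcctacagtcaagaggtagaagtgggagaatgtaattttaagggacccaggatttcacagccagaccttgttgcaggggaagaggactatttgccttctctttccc
Acrv1 upstream: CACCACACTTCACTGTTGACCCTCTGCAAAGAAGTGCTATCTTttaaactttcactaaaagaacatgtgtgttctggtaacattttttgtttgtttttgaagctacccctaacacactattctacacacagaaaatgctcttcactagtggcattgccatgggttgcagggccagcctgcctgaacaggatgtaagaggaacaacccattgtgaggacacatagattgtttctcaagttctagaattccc
Neither sequence contains a CpG, and G and C make up 41.8% and 42% of them. Behind Acrv1, B6 had a broad region of 26500 bp that began 579 bp past its end and ran into Chek1, a checkpoint kinase gene 9644 bp away with 93.8% of its bases in B6 regions and 88.4% in KI regions. The KI region behind Acrv1 began 1079 bp past its end. Coverage of the Acrv1 window thus includes calls that continue into a neighbour, and their part in it was not tested.

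Odf1 encodes a protein of the outer dense fibres of the sperm tail and lies on chromosome 15 at 38148958 to 38156490 on the plus strand. Coverage of its window was 11.4% in B6 and 31.3% in KI, a difference of -19.9 points that 5.69% of genes reached. All 2000 bp covered in B6 lay behind the gene and were covered in KI as well. There a B6 refined peak of 776 bp and a KI peak of 446 bp overlapped by 415 bp. On the gene, B6 had 0% and KI 26.5%, from a region of 2000 bp in its only intron with a refined peak of 287 bp, chr15:38153193-38153479, 4235 to 4521 bp from the start. This peak is shown because B6 had no region on any part of Odf1, and its capitals mark 4 CpG.
Odf1 KI intron peak: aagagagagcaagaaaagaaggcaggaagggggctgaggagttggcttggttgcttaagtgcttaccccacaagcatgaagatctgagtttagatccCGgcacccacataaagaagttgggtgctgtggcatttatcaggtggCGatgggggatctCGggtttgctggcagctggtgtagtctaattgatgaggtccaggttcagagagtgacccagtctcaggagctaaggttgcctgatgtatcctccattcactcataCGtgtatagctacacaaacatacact
The first 8543 bp of the window, which include the start of Odf1, had no region in either strain.

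Gapdhs encodes the sperm form of the glycolytic enzyme glyceraldehyde-3-phosphate dehydrogenase, which feeds the motility of the tail, and lies on chromosome 7 at 31514799 to 31528700 on the minus strand. B6 regions took up 72.0% of its window and 75.5% of the gene, KI regions 57.3% and 68.3%. The difference over the window, 14.6 points, was reached by 10.6% of genes. A single broad region of 10500 bp in B6 and of 9500 bp in KI ran through the gene body and 8500 bp of them coincided. Between positions -1800 and 1699 relative to the start neither strain had a region. B6 alone had a region of 2500 bp further upstream with a refined peak of 719 bp. Refined peaks within the gene did not coincide: that of B6 was 475 bp wide and touched an exon, and that of KI was 293 bp wide and lay in an intron. Behind the gene, between Tmem147 and Atp4a, a KI peak of 257 bp lay wholly inside a B6 peak of 543 bp. This KI peak, chr7:31511752-31512008 on the minus strand, is shown as the widest call of KI outside Crem that was nested in a call of B6, and its capitals mark bases in both.
Gapdhs KI shared peak: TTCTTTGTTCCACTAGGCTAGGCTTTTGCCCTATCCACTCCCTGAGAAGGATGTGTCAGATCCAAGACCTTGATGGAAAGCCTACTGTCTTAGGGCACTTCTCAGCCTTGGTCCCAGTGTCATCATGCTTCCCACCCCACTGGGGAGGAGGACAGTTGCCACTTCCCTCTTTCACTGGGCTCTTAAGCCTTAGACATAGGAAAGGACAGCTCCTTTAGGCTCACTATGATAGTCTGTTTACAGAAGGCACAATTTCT
It contains 0 CpG. Tmem147, 245 bp behind Gapdhs, had 69.9% of its bases in regions of both strains, and Atp4a had 11.7% in B6 and 19.2% in KI.

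Crem, the transcription factor, was the most covered member and the longest, 71.7 kb on chromosome 18 at 3266046 to 3337746 on the minus strand. B6 regions took up 87.2% of its window and 87.8% of the gene, KI regions 81.6% and 81.5%. Of all protein-coding genes, 86.0% in B6 and 82.8% in KI had a less covered window. The strains had 84.7% of their covered bases in common, the highest share among the 7 members with a region, and the difference of 5.56 points was reached by 29.6% of genes. The window held 10 refined peaks of B6 and 11 of KI, mostly in introns. Of the 26 annotated starts of Crem transcripts, 15 lay in broad regions in both strains and 11 in neither. Of these 11, 8 lay within 1 kb of the gene's start and 3 more than 50 kb downstream, in a gap of 1500 bp that both strains left. Crem makes both activator and repressor forms from different starts and by splicing, and the starts inside the gene include those of short repressor forms. With the gene cut into 10 equal parts, B6 regions took up 33.8% of the first part and KI regions 0%, and both took up 100% of the last. For 1315 genes of 50 to 100 kb that were at least 50% covered in both strains, of 2440 of that length, the mean was 70.5% in B6 and 64.7% in KI in the first part, and 96.6% and 95.3% in the last.

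**Figure D3:**
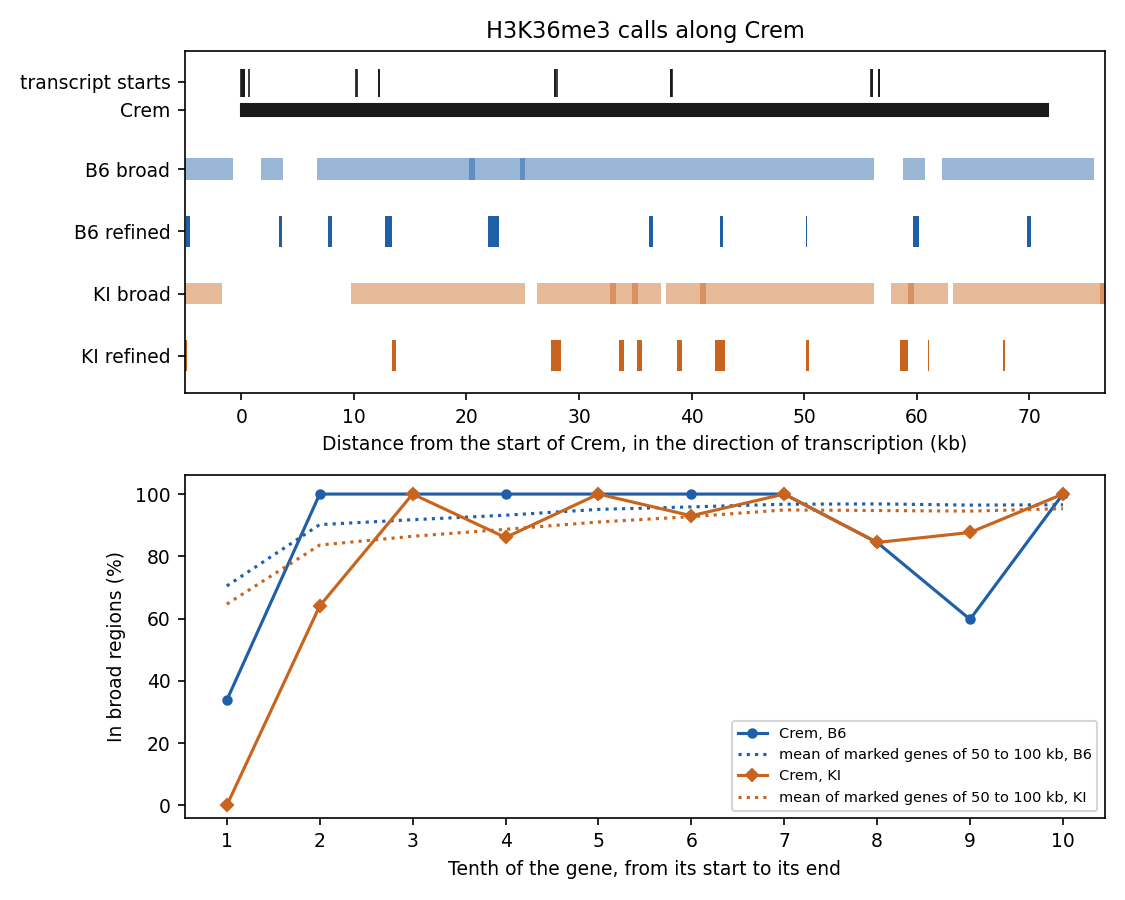
Upper panel, broad regions, refined peaks and annotated transcript starts along Crem (distance from its start in kb); lower panel, share of each of 10 equal parts of Crem in broad regions (%, solid lines) and the mean of 1315 marked genes of 50 to 100 kb (dotted lines). Both strains leave the start of Crem without a region and cover most of the gene from the third part on.

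Neither strain marked more of these genes throughout. B6 was higher at Prm1, Acrv1, Crem and Gapdhs and KI at Prm2, Tnp2 and Odf1. The median absolute difference between the strains was 14.6 points over the 9 members and 2.04 over all protein-coding genes. Over the 7 loci with the cluster joined it was 5.56 points. The value over all genes was not matched for gene length, and neither were the shares of genes that reached a member's difference. The members are shorter, with a median of 5.08 kb against 15.4 kb, and broad regions are at least 2000 bp wide. In a short window, a call in B6 alone or KI alone moves coverage by more points. The part of length in these differences was not tested. Of all protein-coding genes, 26.9% had no region in either strain, as Tnp1 and Smcp did, and such genes enter the medians with no difference. On the gene itself, without flanks, 3 members had a broad region in B6 (Acrv1, Crem, Gapdhs), beside 60.7% of all genes, and 5 in KI, which added Prm2 and Odf1, beside 62.2%. A refined peak fell in 5 of 9 windows in B6, beside 61.2% of all genes, and in 7 in KI, beside 64.6%. The 2 windows added in KI, those of Prm2 and Tnp2, hold the same peak, and by locus 5 of 7 had a refined peak in each strain. On the gene itself there was a refined peak in 3 members in B6, beside 52.7% of all genes, and in 4 in KI, beside 54.9%.

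Counted once each, the windows held 21 refined peaks of B6, with a median width of 404 bp, and 22 of KI, with a median of 354 bp. Of the 21, 6 overlapped a refined peak of KI, beside 17.6% of all B6 peaks, and of the 22, 6 overlapped a peak of B6, beside 14.2% of all KI peaks. These pairs lay at Prm1, Odf1, Gapdhs and Crem. More peaks touched a broad region of the other strain: 14 of 21 in B6, beside 56.2% of all B6 peaks, and 19 of 22 in KI, beside 68.1%. Without the Crem window these counts were 6 of 11 and 9 of 11. The 3 KI peaks that touched no B6 region were those in Prm2, in the intron of Odf1 and at an exon of Crem. Whether any of these peaks lies at a hotspot was not tested.

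**Figure D4:**
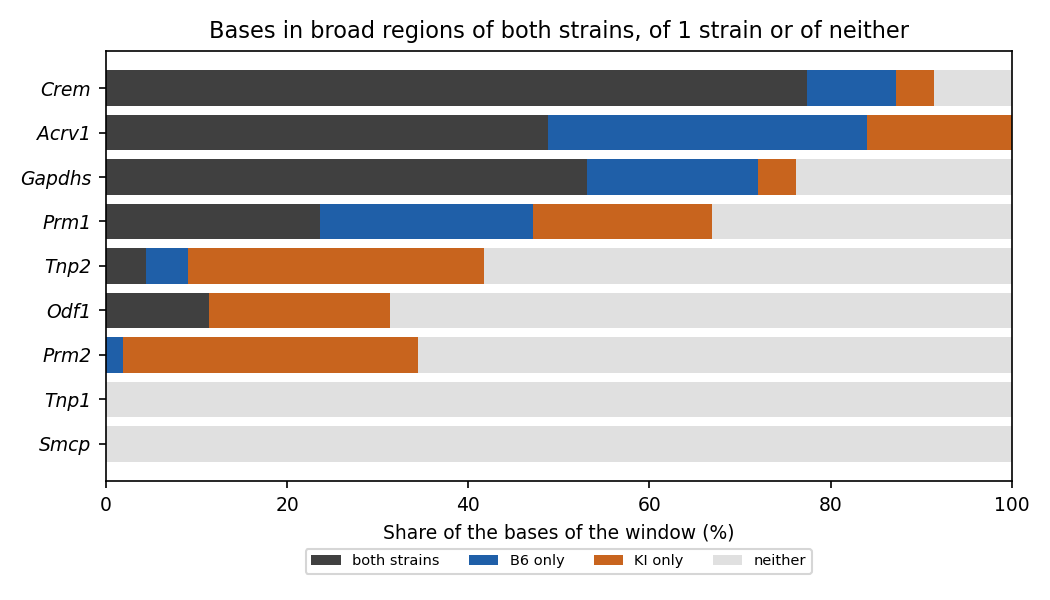
Bases of each member's window (horizontal axis, share in %) in broad regions of both strains, of B6 only, of KI only or of neither. The shared part is the largest covered part for Crem, Acrv1, Gapdhs and, by few bases, Prm1, whereas Prm2 has no shared base and Tnp1 and Smcp no covered base.

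Other genes used in spermatids also ranged from empty to mostly covered windows. Of 42 such genes in 5 lists, 15 were at least 50% covered in B6 and 15 in KI, 13 of them in both, while 14 had no region in B6 and 10 in KI, 9 in both, beside the shares of all genes given above (40.5% and 38.6% at least 50% covered, 33.2% and 30.9% without a region). Their median was 19.2% in B6 and 22.9% in KI. The chromatin list had 3 genes, none at 50%: Prm3 went from 0% in B6 to 33.6% in KI through the region it shares with Prm2, H1fnt, a linker histone gene, from 0% to 5.19%, and Hils1, another, was at 0% in both. Of 8 acrosome genes, 2 reached 50% in B6 and 1 in KI. Zpbp, whose product binds the egg coat, had 76.7% and 67.9% and Spaca1, an acrosomal membrane protein gene, 51.4% and 45.8%, whereas Izumo1, which encodes the sperm protein that binds the egg membrane, and Spaca3 were at 0% in both. Of 13 tail genes, 5 reached 50% in B6 and 4 in KI. Catsper2, a subunit of the sperm calcium channel, had 95.3% and 96.9% and Odf2 83.3% in both strains, while Catsper1, another channel subunit, and Akap4, the main fibrous sheath gene, were at 0%.

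Among these 5 lists, the kinase and other spermatid genes had the highest share of windows at least 50% covered. This was 7 of 11 in B6 and 8 in KI, beside 40.5% and 38.6% of all protein-coding genes. Some of these windows were covered in their flanks only. Tssk1 had 56.3% of its window in B6 regions and 60.7% in KI regions, and Tssk6 60.3% and 55.9%. On the gene itself both had 0% in either strain, whereas Tssk2 and Oaz3 had 100% in either strain. Oaz3, a testis antizyme gene, had 81.1% and 84.9% and Tssk2, a testis-specific kinase gene, 75.7% and 80.1%, whereas Spata18 had 0% and 1.00% and Spata3 0% in both. The glycolytic list, which Gapdhs belongs to by function, had 1 of 7 genes at 50% in B6 and 2 in KI. Eno4, an enolase gene, had 56.8% and 62.1% and Pgam2, a mutase gene, 48.4% and 58.7%. On the gene itself Eno4 had 53.3% and 64.0%, and Pgam2 had 41.0% in both strains. The retrogenes Pgk2, Aldoart1 and Aldoart2 were at 0% in both strains. In none of the 5 lists did a gene differ between strains by 50 points or more.

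Regulators of spermatid genes were covered in nearly every case, as Crem was. Windows of 12 of 13 were at least 50% covered in both strains, with medians of 77.1% in B6 and 75.2% in KI. Over all protein-coding genes, 40.5% in B6 and 38.6% in KI reached 50%. Most of the 13 are longer than the median protein-coding gene (15.4 kb), and the part of length in their coverage was not tested. Papolb, a testis poly(A) polymerase gene, had 100% in both and Creb1, a relative of Crem, 95.1% in both. The lowest were Ybx2, which encodes an RNA-binding protein that holds spermatid mRNAs in store, with 56.9% and 63.3%, and Fhl5, which encodes the coactivator of CREM known as ACT, with 8.54% and 7.59%. Among the 10 meiotic prophase genes, Msh4 and Stag3 had the most and Rec8 and Sycp3 the least, with 67.6% in B6 and 79.1% in KI for Rec8 and 78.1% in both for Sycp3.

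Markers of the somatic cells of the testis were mostly low. Of 10 Sertoli and Leydig genes, 2 were at least 50% covered in B6 and 1 in KI, with medians of 12.2% and 8.17%. Over all protein-coding genes, 40.5% in B6 and 38.6% in KI reached 50%, and the medians were 26.4% and 23.6%. Star, which brings cholesterol into mitochondria for steroid synthesis, had 100% and 94.1%, Amh 48.5% and 40.4%, and Rhox8, Cyp17a1 and Insl3 were at 0% in both. Wt1, a Sertoli cell transcription factor gene, had 66.6% in B6 and 12.3% in KI, and this was the only gene of the lists to differ by 50 points or more. The part of somatic cells in the calls at Acrv1, Crem or Gapdhs was not tested. Of 10 genes of other tissues, 0 reached 50%. At 0% in both strains were 7 (Alb, Hbb-b1, Myh7, Cryaa, Krt5, Neurod1 and Cdx2), beside 26.9% of all protein-coding genes. The most covered were Apoa1 at 23.9% and 28.1% and Myh6 at 17.1% and 8.57%. Most genes of either list are shorter than the median protein-coding gene (15.4 kb), and the part of length in their coverage was not tested.

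**Figure D5:**
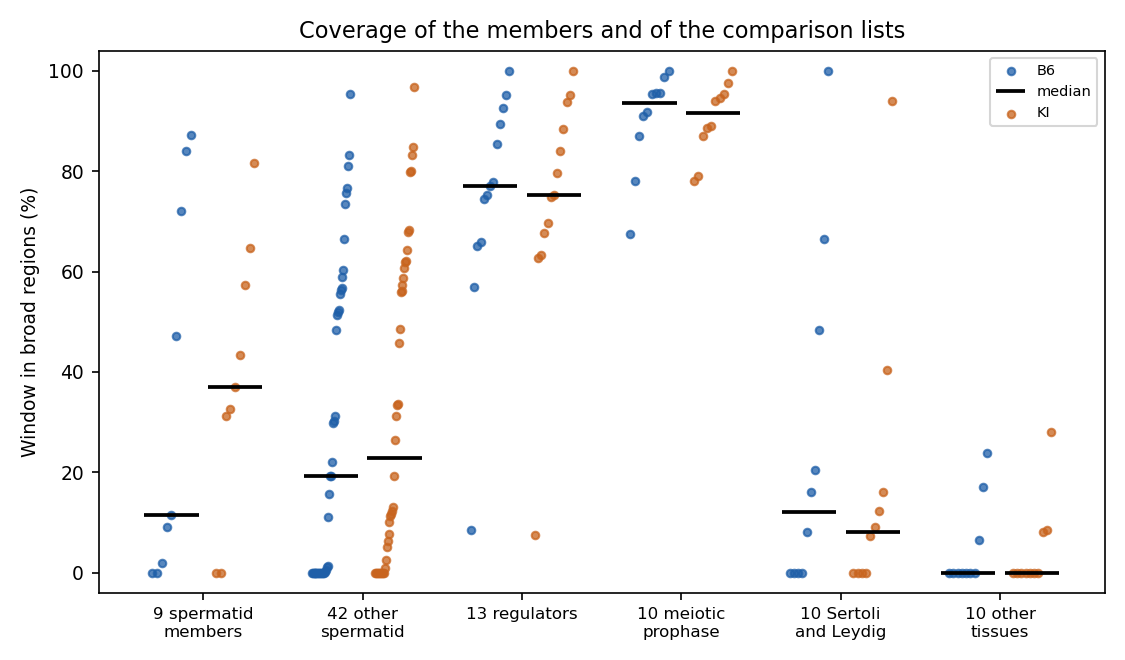
Share of the window in broad regions (vertical axis, %) for each gene of the 9 members and of the comparison lists, B6 and KI side by side, with the median of each group as a bar. Members and other spermatid genes spread from 0 to above 80%, regulators and meiotic prophase genes sit mostly above 50%, and most genes of somatic testis cells and other tissues lie low.

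CREM and its relatives bind the cAMP response element, TGACGTCA. This sequence was searched for in the 300 bases from 250 before to 50 after each gene start, on both strands. It was in the promoter of 0 of the 9 members, beside 2.32% of all 22367. A variant with 1 base changed, TGATGTCA, chosen after the promoters had been seen, was in 3 (Tnp1, Smcp and Gapdhs), beside 3.03% of all. Because the variant was picked from these same promoters, its count cannot show an excess over all genes. The TATAAA hexamer was in 1 (Prm2), beside 13.4%. The 3 promoters with the variant were at Tnp1 and Smcp, which had no H3K36me3 call in either strain, and at Gapdhs, which had calls in its body. CpG were few, with 0 to 6 in 8 of the 9 promoters and 22 in that of Crem, against a median of 11 over all promoters (quartiles 3 and 23).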

How the data were processed

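ChIP-seq of H3K36me3 had been done by the authors on germ cells of B6 and KI mice at 14 dpp, with MNase-digested, formaldehyde-fixed nuclei. The authors aligned uniquely placed reads to mm9 (BWA 1.2.3 in the submitters' processing notes), merged the biological replicates of each strain and called peaks against the input with ZINBA. The deposited lists hold only chromosome, start and end. A region of the broad list is repeated for each refined peak in it and was used once (54458 different regions in B6, 66566 in KI), and overlapping regions were merged. Uniquely placed reads can leave repeated sequence without calls.

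Python 3.11.15 with pandas 2.3.3 and numpy 2.4.6 served to compute coverage. It was tested on simulated data and checked against bedtools 2.31.1, where 0 of 44734 windows differed. Genes and sequences came from GENCODE vM1 and its mm9 genome, and 0 intervals ran past a chromosome end. Plots used matplotlib 3.10.9. Members and gene lists were chosen with earlier results of these data known. Named beside the members were protein-coding genes within a member window and, of each list, the 2 most and 2 least covered genes (by the mean of both strains, with ties) and those differing by 50 points or more. Chek1, outside the windows, and the kinase genes Tssk1, Tssk4 and Tssk6 were named after their values were seen. Alternatives were other flanks, region widths, coverage thresholds and overlaps. Inputs were not used.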

Additional observations from a re-analysis of the deposited data

How the results depend on the processing

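With 1 pooled list per strain, no replicate could be left out. No paired analysis was possible because each strain has 1 list and no result comes from a test. The lists hold no score, so no stricter caller threshold could be applied, and regions of at least 5 kb were taken in its place. Of 36 values recomputed, 22 stayed within the limits used (1.5 times for a count, 10 percentage points for a median) and 14 did not. On the gene span alone the median coverage was 0% in B6 and 21.3% in KI, and a refined peak was in 3 members in B6 and 4 in KI. With flanks of 2 kb the KI median was 21.6%, and with 10 kb the B6 median was 30.2%. Broad regions of at least 5 kb left medians of 0% in B6 and 0% in KI and 1 member at least 50% covered in KI. A coverage threshold of 10% was passed by 5 members in B6 and 7 in KI, beside 58.1% and 58.7% of all genes, and a threshold of 90% by 0 and 0, beside 10.9% and 8.45%. With the overlapping windows of Prm1, Prm2 and Tnp2 joined, an alternative added after the data were seen, the median was 31.4% in B6 and 34.2% in KI. With flanks of 5 kb the gap between the medians of the strains was thus much smaller when this cluster was counted once. The cluster was not joined for the gene span alone or for other flanks. The windows with refined peaks common to the strains numbered 4, also when the overlap had to reach 50% of the shorter peak, and 5 within 500 bp. No share of all protein-coding genes stands beside these window counts, so whether they are high or low for such windows is not known.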

Other observations

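Of the other protein-coding genes that touch the windows, Gm10343, 4482 bp from Prm1, was covered completely in B6 and to 0% in KI, the reverse of Prm3. Socs1 had 5.78% of its bases in B6 regions and 0% in KI regions. Among the spermatid kinase genes, Tssk4 stood just under the limit for a named difference, with 31.2% of its window covered in B6 and 79.8% in KI, and its start lay in a broad region in KI only. It was picked out after its values were seen, and with 1 list per strain the difference was not tested.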
